A study of Macaca mulatta with 15 samples.

Results

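The comparison described here sets CD8 naive T cells against CD4 naive T cells from the peripheral blood of 2 healthy rhesus macaques, named RhDBCb and RhM22. Its libraries were chosen by their subset label alone, which gave 3 CD8 naive and 4 CD4 naive libraries, 7 of the 15 RNA-seq libraries in the study. The animals were sampled with no treatment ("before") and after 2-hydroxypropyl-beta-cyclodextrin ("after"), a cyclic sugar that takes up cholesterol. It was injected under the skin as a 15% (w/w) solution, in a daily volume of 1 ml/kg, for a course of at most 120 days. CD4 naive cells were measured before and after treatment in both animals, and CD8 naive cells before treatment in both and after treatment in RhM22. Before and after libraries were used together, so the CD8 and CD4 groups hold cells of treated and untreated draws alike, and the fit carried terms for animal and time. No animal was left untreated throughout, and libraries of 1 animal at the 2 times are not independent animals. A p-value here is set against the spread left among these 7 libraries after the terms for lineage, animal and time. It does not measure the spread between animals. The labels do not state how the cells were separated.

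CD4 and CD8 T cells part in the thymus, where a developing cell that carries both co-receptors keeps one of them. CD4 is the co-receptor for peptides on MHC class II and CD8 for peptides on MHC class I, and the transcription factors ZBTB7B (ThPOK) and RUNX3 are known for fixing the helper and the cytotoxic fate. A naive cell has left the thymus and has not yet met its antigen. It is held quiescent, circulates through lymph nodes with the help of the chemokine receptor CCR7, and turns on most of its effector genes after activation.

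The 7 naive libraries held 44414954 to 71787193 counts each, with 10189 to 10405 genes at 1 CPM (counts scaled by library size) or more. Over these libraries the first principal component of log2 CPM carried 42.4% of the variance and separated the animals, at -111.6 to -32.3 for RhDBCb and 49.6 to 65.5 for RhM22. The second carried 27.1% and separated the lineages, at 26.0 to 70.1 for CD4 naive and -102.3 to -39.7 for CD8 naive libraries. The CD8 naive library of RhDBCb had the lowest score on both components, and the counts of the main groups are given with and without it. DDX3Y, a Y chromosome gene, lay at 45.3 to 142 CPM in the naive libraries of RhDBCb and at 0.37 CPM or less in those of RhM22. Differences by animal and by sex therefore cannot be told apart here. The summed naive and quiescence genes followed the labels. The 21 found in the files summed to 18430 to 21230 CPM in CD8 naive libraries, which was 259%, 169% and 149% of the sum in the CD8 memory library of the same draw. In CD4 naive libraries they summed to 17730 to 28710 CPM, against 13260 to 16540 CPM in CD4 memory libraries. Not every effector gene followed the labels. In RhDBCb before, CCL5 lay at 252 CPM in the CD8 naive and 138 CPM in the CD8 memory library. In RhM22 it lay lower in the CD8 naive library at both times.

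Throughout, CD8 naive values are listed in the order RhDBCb before, RhM22 before and RhM22 after, and CD4 naive values in the order RhDBCb before, RhDBCb after, RhM22 before and RhM22 after. Levels are in CPM and fold changes are log2 of CD8 naive over CD4 naive, ± SE, from edgeR's quasi-likelihood test. A gene is called at a Benjamini-Hochberg adjusted p under 0.05 over all 12677 genes tested. In bulk RNA, fewer cells with a transcript and less transcript per cell cannot be told apart.

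CD8 naive and CD4 naive cells differed in 140 called genes, 1.1% of those tested, and 138 of them differed by 1 log2 unit or more. Of these, 91 (0.718%) were higher in CD8 naive and 49 (0.387%) higher in CD4 naive cells. The genes higher in CD8 naive cells included those for the CD8 chains, cytotoxic proteins and natural killer (NK) type receptors, and those higher in CD4 naive cells CD4, CD40 ligand and the receptors CXCR5 and CCR4. In each of the 140 the direction, taken with 0.5 added to each count, was the same in the 3 draws that hold both subsets. For CD1C this rests on the addition in RhDBCb before, where neither naive library held a count of it. In 130 of the 140 the CPM values of the groups did not overlap, against 1142 (9.01%) of all genes tested. The median fold change over all genes was -0.02.

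**Figure D1:**
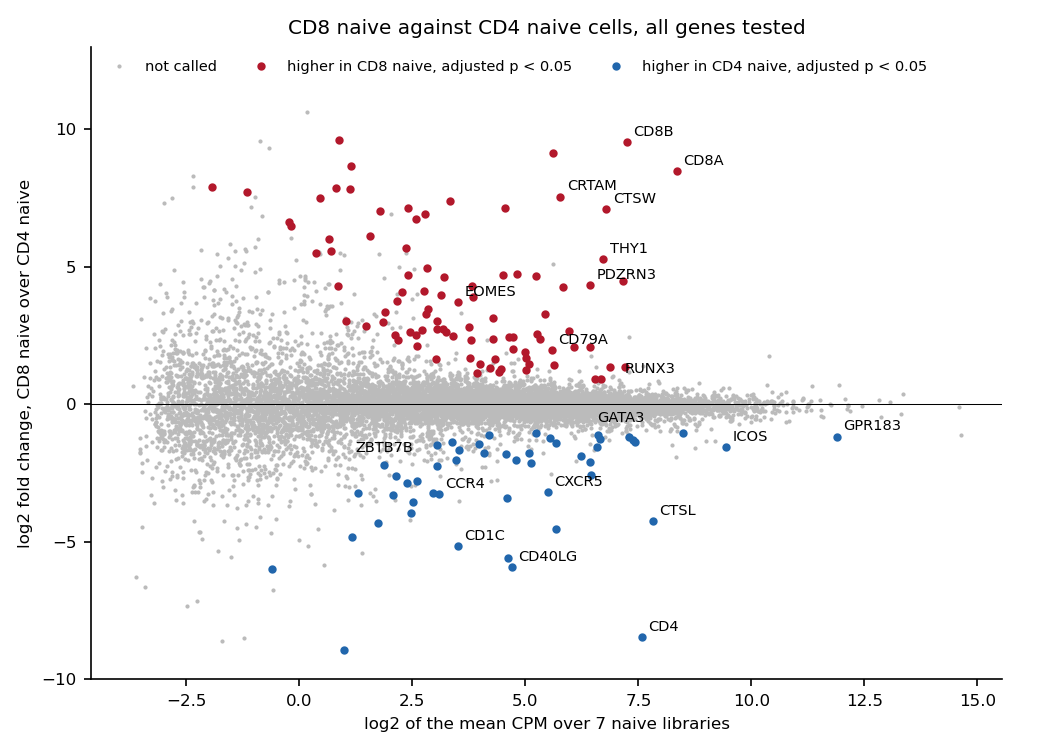
Log2 fold change of CD8 naive over CD4 naive cells against log2 of the mean CPM over the 7 naive libraries, 1 point per gene tested (n = 12677). Red points are the 91 genes called higher in CD8 naive and blue points the 49 called higher in CD4 naive cells, and grey genes such as RUNX3, GATA3 and ZBTB7B were not called.

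The number called moved with the fit and with single libraries. A block for each draw, in place of animal and time, called 309 genes with 138 of the 140 among them, and no block called 92. Without the CD8 naive library of RhDBCb 22 genes were called, 18 of them among the 140. Besides the 13 genes named below as called in every such fit, these 18 were MATK, GZMK, CD79A, CCR4 and CD40LG, so every other gene given below as called between the naive lineages lost its call without that library. Without both before libraries of RhDBCb, a fit with 1 residual degree of freedom against 3, 1222 genes were called and held all 140. This fit and the fit without the CD8 naive library of RhDBCb have CD8 naive libraries of RhM22 alone. Their lineage difference therefore comes from that animal. Over the 7 fits that each leave out 1 library, every one of the 140 kept its sign and 13 stayed called in all 7. These were CTSW, CD8B, THY1, CD8A, CPE, CRTAM, SLAMF7, PDZRN3 and GZMM, higher in CD8 naive, and CD4, LTBP4, CXCR5 and GFRA2, higher in CD4 naive cells.

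The co-receptors served as a check of the labels, since cells may have been separated by them. CD8A lay at 664, 830 and 793 CPM in CD8 naive and at 1.10, 1.17, 2.32 and 3.89 CPM in CD4 naive libraries. CD8B, the second chain of the co-receptor, lay at 436, 317 and 306 CPM against 0.527, 0.266, 0.565 and 0.445 CPM. CD4 lay at 0.304, 1.70 and 1.34 CPM in CD8 naive and at 203, 317, 327 and 484 CPM in CD4 naive libraries. The levels of the lineages were far apart for each co-receptor in every library, although none was at 0 in the other lineage.

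Of 12 CD8 lineage genes tested, 9 were called higher in CD8 naive and 0 in CD4 naive cells, with a median of 4.11 against -0.02 over all genes. Besides the CD8 chains they were CRTAM, EOMES, NKG2D, NKG7, CD248, GZMM and CST7. CRTAM, a surface protein of cytotoxic lymphocytes that binds CADM1, lay at 194, 103 and 81.6 CPM against 2.04, 1.17, 0.283 and 0.302 CPM (7.55 ± 0.39, adjusted p = 0.000623). Its lowest CD8 naive level stood far above its highest CD4 naive level. EOMES, a T-box factor of cytotoxic and memory cells, lay at 16.5, 31.2 and 25.3 CPM against 1.05, 2.46, 1.86 and 1.81 CPM (3.73 ± 0.35, adjusted p = 0.00669). It was lowest in the CD8 naive library of RhDBCb. Without that library EOMES was not called (3.95, adjusted p = 0.0752), and 4 of the 12 CD8 lineage genes were called, with a median of 3.89.

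Of 18 tested cytotoxic genes, which encode the contents of killing granules and their helpers, 10 were called higher in CD8 naive and 0 in CD4 naive cells, with a median of 3.85. The fold change was above 0 for 17 of the 18, the exception being SRGN, a granule proteoglycan, at -0.45 ± 0.17 (adjusted p = 0.383). CTSW (cathepsin W), a protease of cytotoxic lymphocytes, had the smallest p of all genes. It lay at 356, 220 and 193 CPM in CD8 naive and at 2.93, 1.99, 1.43 and 1.40 CPM in CD4 naive libraries (7.11 ± 0.18, adjusted p = 3.98e-05). GZMM, the gene of granzyme M, lay at 494, 223 and 228 CPM against 10.8, 13.4, 15.5 and 13.7 CPM (4.47 ± 0.32, adjusted p = 0.00275). The groups of both genes stood far apart in each animal. Without the CD8 naive library of RhDBCb 3 of the 18 were called, with a median of 3.32, and without both before libraries of that animal 14 were called. In both of these fits the lineage difference comes from RhM22 alone.

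Other granule genes varied more between the CD8 naive libraries. GZMK, the gene of granzyme K, lay at 140, 29.1 and 21.4 CPM against 2.34, 2.63, 1.43 and 1.43 CPM (4.75 ± 0.38, adjusted p = 0.00380). GNLY, the gene of the antimicrobial granulysin, lay at 180, 48.9 and 24.3 CPM against 0.861 to 5.95 CPM (4.68 ± 0.71, adjusted p = 0.0370). GZMB, the gene of granzyme B, lay at 171, 132 and 67.2 CPM against 18.4, 7.42, 30.5 and 11.0 CPM (2.68 ± 0.22, adjusted p = 0.00406). All 3 were highest in the CD8 naive library of RhDBCb, and none overlapped between the lineages. Without that library GZMK stayed called (4.12, adjusted p = 0.0302), while GNLY (3.36, adjusted p = 0.0642, and 0.0532 with a block for each draw) and GZMB (2.35, adjusted p = 0.055) were not called. NKG7, a granule membrane protein, lay at 182, 116 and 77.2 CPM against 2.50, 2.84, 12.7 and 6.58 CPM, and was likewise not called without it (3.34, adjusted p = 0.0559). FASLG, the death ligand, was called at 2.33 ± 0.31, with groups that overlap over both animals, and was not called without that library (adjusted p = 0.169).

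Of the cytotoxic genes that missed the threshold, CCL5 and PRF1 had clear levels. CCL5, a chemokine stored by cytotoxic cells, lay at 252, 50.8 and 30.4 CPM against 0.985, 1.80, 3.05 and 3.26 CPM (5.09 ± 0.86, adjusted p = 0.0555). PRF1, which encodes the pore-forming perforin, lay at 102, 193 and 137 CPM against 51.0, 64.5, 31.7 and 34.2 CPM (1.77 ± 0.37, adjusted p = 0.0967). Neither overlapped between the lineages.

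NK-type receptors, which tune killing by stress ligands and MHC class I, had 7 of 14 tested members called higher in CD8 naive cells and 0 lower, with a median of 4.78. KLRD1 (CD94), the partner chain of the NKG2 receptors, lay at 31.7, 20.9 and 17.4 CPM against 0, 0.0886, 0.222 and 0.175 CPM (7.41 ± 0.66, adjusted p = 0.00575). NKG2D, an activating receptor for stress ligands, lay at 15.9, 11.0 and 14.4 CPM against 0.0229, 0.241, 0.121 and 0.207 CPM (6.73 ± 0.52, adjusted p = 0.00323). SLAMF7, a receptor of NK and cytotoxic cells, lay at 26.7, 13.9 and 7.22 CPM against 0.641, 0.329, 0.585 and 0.223 CPM (4.96 ± 0.27, adjusted p = 0.000706). In CD4 naive cells these 3 receptors sat below 1 CPM in every library. Without the CD8 naive library of RhDBCb 2 of the 14 receptors were called, with a median of 3.96, and KLRD1 and NKG2D were not (adjusted p = 0.0651 for both). KLRG1, an inhibitory receptor of differentiated T cells, lay at 6.50, 3.27 and 2.48 CPM in CD8 naive libraries, while the 4 CD4 naive libraries held 3 counts of it in all. Such members passed the filter on low counts through their CD8 naive libraries, which fixed their direction. The count and median of this list are therefore descriptions. The KLR genes are a family of similar sequence, and how counts were shared among such copies is not stated.

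Markers of other cells that carry such genes were read beside them. The NK markers gave 2 of 9 tested called higher, KLRF1 and IL18RAP, with a median of 2.83, and the 13 found summed to 158 to 289 CPM in CD8 naive and 126 to 266 CPM in CD4 naive libraries. Of the 9 tested, 8 had a fold change above 0, and KLRF1 among them passed the filter on low counts through its CD8 naive libraries. In CD8 naive libraries most of the sum came from NK markers whose levels are not printed here, so the levels below do not describe the list. The sum was 155%, 97.2% and 79.5% of that in the CD8 memory library of the same draw. KLRF1 lay at 8.99, 7.27 and 4.19 CPM in CD8 naive libraries, KIR2DL4 at 2.31 to 3.84 CPM and NCR1 at 0.451 to 1.76 CPM, while NCAM1 (CD56) lay at 0 to 0.254 CPM, FCER1G at 0 to 0.197 CPM and FCGR3 at 0.900 to 1.67 CPM. Of 8 gamma-delta and MAIT markers tested, 3 were called higher (TRGV9, CEBPD and KLRB1). The summed level of all 10 such markers found was 40.3 to 83.4 CPM in CD8 naive, 14.7 to 28.9 CPM in CD4 naive and 168 to 408 CPM in CD8 memory libraries. Of 25 memory genes tested, 2 were called higher in CD8 naive cells, GZMK and KLRB1. The 25 memory genes found summed to 4891 to 7732 CPM in CD8 naive and 14180 to 18950 CPM in CD8 memory libraries. The part of NK cells, memory cells or unconventional T cells in the naive levels was not tested.

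B cell markers gave 2 of 11 tested called higher in CD8 naive cells, CD79A and CD79B, which encode the signalling pair of the B cell receptor. CD79A lay at 50.0, 104 and 102 CPM against 19.5, 24.6, 18.7 and 19.7 CPM (1.98 ± 0.28, adjusted p = 0.0283). CD79B lay at 11.2, 4.92 and 8.20 CPM against 1.42, 2.28, 1.27 and 1.24 CPM (2.50 ± 0.30, adjusted p = 0.0185). Among the other B cell markers, MS4A1 (CD20) lay at 0.106 to 1.72 CPM and PAX5 at 0 to 0.197 CPM in CD8 naive libraries. Of the 11 markers tested, 9 had a fold change above 0, with a median of 0.82. The levels of the remaining markers are not printed here, and the part of B cells was not tested. The 14 B cell markers summed to 84.7 to 144 CPM in CD8 naive and 32.9 to 43.3 CPM in CD4 naive libraries. In CD8 memory libraries CD79A lay at 18.5 to 32.3 CPM. Without the CD8 naive library of RhDBCb CD79A stayed called (adjusted p = 0.0432) and CD79B did not (adjusted p = 0.196).

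Several genes with no known role in killing were among those with the largest differences. THY1, a surface glycoprotein (CD90), lay at 447, 119 and 143 CPM against 9.69, 14.9, 3.23 and 3.65 CPM (5.27 ± 0.17, adjusted p = 6.46e-05). PDZRN3, a ubiquitin ligase, lay at 304, 107 and 148 CPM against 21.2, 14.8, 4.70 and 6.37 CPM (4.34 ± 0.24, adjusted p = 0.000762). CPE, a carboxypeptidase of secretory granules, lay at 55.9, 54.0 and 40.5 CPM against 2.43, 1.91, 2.08 and 1.06 CPM (4.72 ± 0.23, adjusted p = 0.000579). THY1 and PDZRN3 had higher levels in RhDBCb than in RhM22 in both lineages, whereas CPE was nearly level among the CD8 naive libraries. The gene ENSMMUG00000054982, which has no symbol in the tables used, lay at 159, 84.2 and 98.9 CPM against 0.550, 0.0253, 0.242 and 0.0953 CPM (9.13 ± 0.63, adjusted p = 0.00225, and 0.0651 without the CD8 naive library of RhDBCb).

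**Figure D2:**
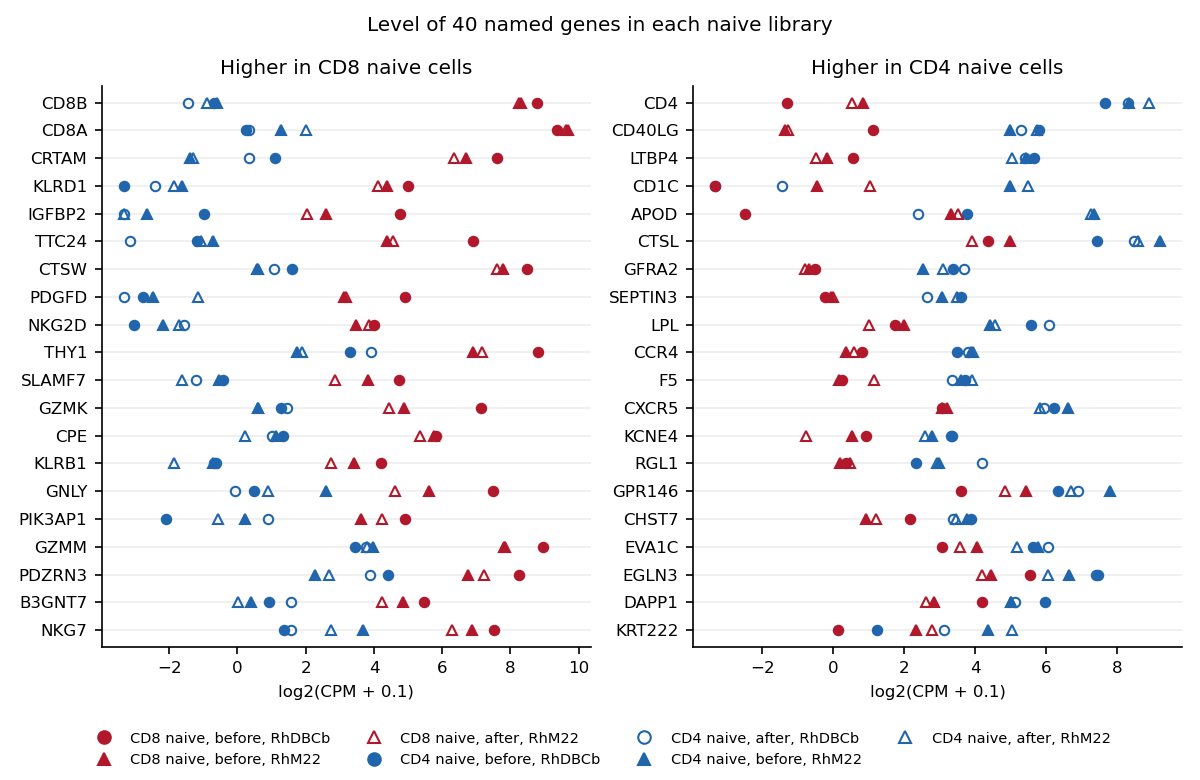
Level of the 20 genes per direction with the largest called differences (mean of at least 5 CPM), as log2(CPM + 0.1) in each naive library, with CD8 naive in red, CD4 naive in blue, circles for RhDBCb, triangles for RhM22 and open symbols for after treatment. The lineages are separate for 37 of the 40 genes, and those of APOD, CD1C and KRT222 overlap.

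On the CD4 side, 4 of 14 CD4 lineage genes tested were called higher in CD4 naive cells and 0 lower, with a median of -1.42. They were CD4, CD40LG, ICOS and TSHZ2. CD40LG, the ligand by which helper T cells license B cells and dendritic cells, lay at 55.5, 39.2, 31.9 and 53.3 CPM in CD4 naive and at 2.09, 0.291 and 0.310 CPM in CD8 naive libraries (-5.91 ± 0.69, adjusted p = 0.0164). ICOS, a co-stimulatory receptor, lay at 663, 855, 1254 and 1020 CPM against 215, 468 and 412 CPM (-1.57 ± 0.20, adjusted p = 0.0214). CD40LG was close to off in CD8 naive cells, whereas ICOS was well expressed in both lineages and higher in CD4. TSHZ2, a zinc finger factor, lay at 9.18, 1.85, 1.23 and 1.70 CPM in CD4 naive libraries, with 1 count in all over the 3 CD8 naive libraries. CTLA4 (-1.26 ± 0.23, adjusted p = 0.0668, and 0.0214 with a block for each draw) and IL6R (-1.77 ± 0.38, adjusted p = 0.107) did not overlap between the lineages and were not called, and CD28, the main co-stimulatory receptor, differed by -0.54 ± 0.17 (adjusted p = 0.25).

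Of 22 chemokine receptors and homing genes tested, 3 were called higher in CD4 naive and 0 in CD8 naive cells, with a median of -0.01 and 11 fold changes above 0. The 3 were CXCR5, CCR4 and GPR183. CXCR5, which draws cells to follicles, lay at 74.8, 61.9, 98.9 and 56.8 CPM against 8.30, 9.22 and 8.26 CPM (-3.19 ± 0.20, adjusted p = 0.00125). CCR4, a receptor of skin-homing and helper type 2 cells, lay at 11.2, 13.8, 14.7 and 15.4 CPM against 1.67, 1.19 and 1.41 CPM (-3.28 ± 0.27, adjusted p = 0.00380). Both were even among the libraries of a lineage, in either animal. GPR183 (EBI2), an oxysterol receptor that places cells at the T and B cell border, lay at 7886, 4269, 4719 and 3107 CPM against 3040, 2114 and 1535 CPM (-1.18 ± 0.15, adjusted p = 0.0207). Its lowest CD4 naive level was just above its highest CD8 naive level. Without the CD8 naive library of RhDBCb CXCR5 (adjusted p = 0.0355) and CCR4 (0.0302) stayed called, and GPR183 (0.236) and ICOS (0.204) did not.

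CCR7, which guides cells into lymph nodes, was not called. It lay at 10810, 9068 and 6528 CPM in CD8 naive and at 17240, 9689, 12000 and 5917 CPM in CD4 naive libraries (-0.35 ± 0.18, adjusted p = 0.548). The ranges of the lineages overlapped.

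Further genes higher in CD4 naive cells were of mixed function. LTBP4, which tethers latent TGF-beta to the matrix, lay at 50.3, 42.3, 43.1 and 33.1 CPM against 1.38, 0.786 and 0.620 CPM (-5.58 ± 0.23, adjusted p = 0.000215). CTSL (cathepsin L), a lysosomal protease, lay at 175, 361, 594 and 386 CPM against 20.4, 31.7 and 15.1 CPM (-4.25 ± 0.44, adjusted p = 0.0102). LPL, a lipase of lipoproteins, lay at 47.4, 68.6, 21.5 and 23.7 CPM against 3.26, 3.85 and 1.93 CPM (-3.43 ± 0.42, adjusted p = 0.0186). No CD8 naive library reached a CD4 naive library in these genes. CTSL (adjusted p = 0.095) and LPL (0.118) were not called without the CD8 naive library of RhDBCb. Also called were GFRA2, a receptor subunit for neurturin (-3.94 ± 0.30), EGLN3, an oxygen-sensing hydroxylase (-2.09 ± 0.16), ARID5B, a chromatin factor (-1.55 ± 0.17), and KLF7, a Krüppel-like factor (-1.42 ± 0.20). Without that library GFRA2 stayed called (adjusted p = 0.0453), and EGLN3 (0.0651), ARID5B (0.142) and KLF7 (0.169) did not; KLF7 was called in 1 of the 7 fits that leave out 1 library.

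Some CD4 naive differences were seen at very different levels in the 2 animals. APOD, an apolipoprotein, lay at 13.6, 5.19, 163 and 156 CPM in CD4 naive and at 0.0794, 9.89 and 11.4 CPM in CD8 naive libraries. CD1C, which presents lipids, lay at 0, 0.266, 31.9 and 45.0 CPM against 0, 0.626 and 1.95 CPM. FOXP3, the regulatory T cell factor, lay at 1.47, 1.87, 13.4 and 9.25 CPM against 0.185, 1.91 and 2.59 CPM (-2.62 ± 0.36, adjusted p = 0.0271). In all 3 the CD4 naive libraries of RhM22 stood above the rest, and the groups overlap over both animals. With no block, none of them was called (adjusted p = 0.712 for APOD, 0.827 for CD1C and 0.816 for FOXP3). FOXP3 was the 1 called among 16 regulatory T cell genes tested, whose median was -1.35. In this list all calls higher in CD4 naive cells numbered 5 with a block for each draw, 8 by DESeq2, 4 of 18 tested with all 15 libraries in the fit and 0 with no block.

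The factors known for the lineage choice were not among the 140 called genes, and whether any was called depended on the fit. Of 29 regulators tested, edgeR called 0, with a median of -0.16. At an unadjusted p under 0.05 there were 10 of the 29, against 1482 (11.7%) of all 12677 genes tested. DESeq2 called 2 higher in CD8 naive and 4 higher in CD4 naive cells, against 754 called over all genes. With a block for each draw edgeR called RUNX3 (1.04, adjusted p = 0.0342) and PRDM1, a repressor known as Blimp-1 (-1.24, adjusted p = 0.0417). Fitted with all 15 libraries, edgeR called TBX21 (2.05, adjusted p = 0.00119), ZBTB7B (-1.97, adjusted p = 0.00645) and TOX2 (-1.65, adjusted p = 0.0352). RUNX3 lay at 82.6, 286 and 208 CPM against 31.9, 67.5, 127 and 134 CPM (0.89 ± 0.28, adjusted p = 0.261). ZBTB7B lay at 0.781, 0.640 and 0.888 CPM against 1.56, 2.33, 3.73 and 5.02 CPM (-1.98 ± 0.47, adjusted p = 0.138). RUNX3 overlapped between the lineages over both animals, while within each draw the CD8 library was higher; ZBTB7B was low throughout and did not overlap.

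GATA3, a factor of CD4 cell development and helper type 2 cells, lay at 62.2, 55.8 and 65.7 CPM against 84.0, 100, 132 and 115 CPM (-0.86 ± 0.18, adjusted p = 0.0972). TBX21 (T-bet), a factor of effector cells, lay at 5.35, 2.07 and 1.85 CPM against 0.847, 0.772, 0.706 and 0.508 CPM (2.02 ± 0.42, adjusted p = 0.0982). Neither overlapped between the lineages. TOX2 (-1.72 ± 0.44) and MYB (-0.85 ± 0.30) also did not overlap. TCF7 (-0.11 ± 0.17) and LEF1 (-0.14 ± 0.17), which keep T cells naive, overlapped, as did BCL11B, SATB1, RUNX1, TOX and ID2.

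**Figure D3:**
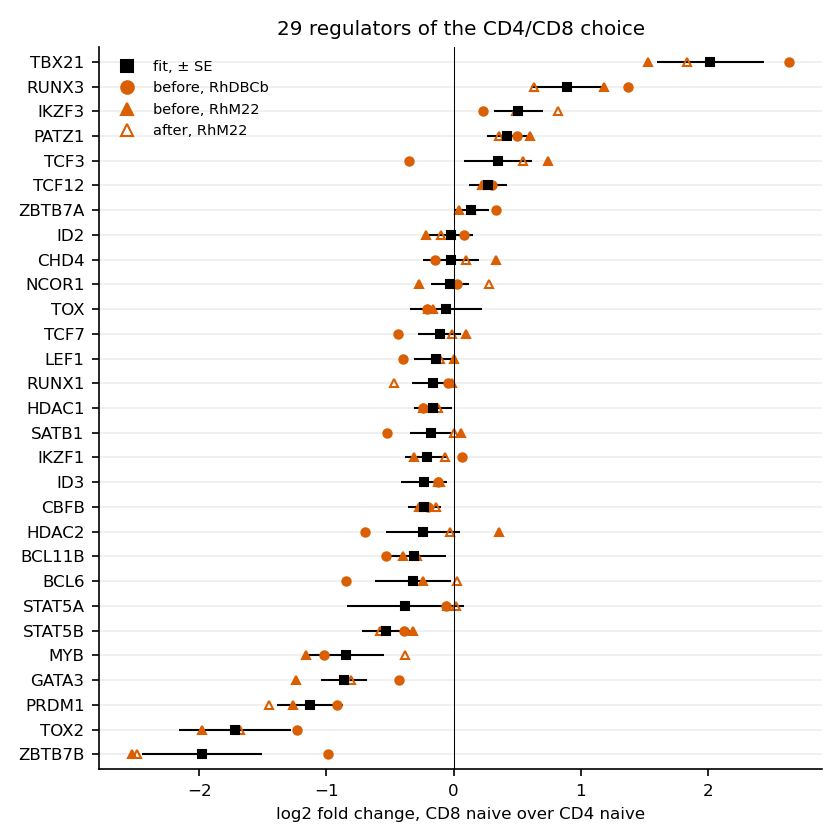
Log2 fold change of CD8 naive over CD4 naive cells for the 29 regulators of the lineage choice. Black squares are the fit ± SE and orange symbols the value within each of the 3 draws with both subsets, and TBX21 (2.02) and ZBTB7B (-1.98) lie farthest from 0.

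Signalling receptors held few calls. Over all genes tested 1.1% were called, so single calls in such lists are given as values and not as a result about the list. Of 39 cytokine receptors and JAK-STAT genes, 3 were called, each higher in CD8 naive cells, with a median of -0.36. IL12RB2, a chain of the interleukin 12 receptor, lay at 3.93, 2.85 and 2.03 CPM against 0.0229, 0.0127, 0.202 and 0.0318 CPM. IL18RAP, a chain of the interleukin 18 receptor, lay at 7.76, 5.51 and 3.21 CPM against 1.03, 0.456, 1.11 and 0.286 CPM. TGFBR3 (betaglycan), a TGF-beta co-receptor, lay at 108, 63.9 and 49.2 CPM against 14.2, 3.62, 14.2 and 12.8 CPM. These 3 did not overlap between the lineages, and none of the 39 was called without the CD8 naive library of RhDBCb. Of 39 T cell receptor signalling genes, TRAT1, an adaptor of the receptor complex, was called (-1.88 ± 0.23, adjusted p = 0.0185), with a median of -0.03. Of 14 inhibitory receptors, CD96 (1.34 ± 0.16) and KLRG1 were called, both higher in CD8 naive cells. ITGAX (CD11c) was the 1 called among 15 integrins, at 2.63 ± 0.39. Without the CD8 naive library of RhDBCb TRAT1 (adjusted p = 0.166), CD96 (0.123), KLRG1 (0.119) and ITGAX (0.212) were not called.

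General programmes showed few or no calls by edgeR. Over all 12677 genes tested, edgeR called 140 (1.1%), 1482 (11.7%) had an unadjusted p under 0.05, and DESeq2 called 754. Naive and quiescence genes had 0 of 19 called by edgeR, 1 at an unadjusted p under 0.05 and 0 by DESeq2, with a median of -0.12. Cytosolic ribosomal protein genes had 0 of 45 called, 0 unadjusted and 0 by DESeq2, with a median of 0.04. Type I interferon-stimulated genes had 0 of 41 called by edgeR, 13 unadjusted and 8 by DESeq2, of which 7 were higher in CD4 naive cells. Proliferation genes had 0 of 25 called, 4 unadjusted and 2 by DESeq2. Immediate early genes had 0 of 31 called, 5 unadjusted and 3 by DESeq2. Cholesterol synthesis and uptake, the pathway nearest to cyclodextrin, had 1 of 25 called, SQLE (squalene epoxidase), which was higher in CD4 naive cells (-1.14 ± 0.17, adjusted p = 0.0384). Nuclear oxidative phosphorylation genes had 1 of 36 called, NDUFV2, a subunit of complex I (-1.18 ± 0.18, adjusted p = 0.0431). SQLE and NDUFV2 were each called in 1 of the 7 fits that leave out 1 library, with adjusted p of 0.218 and 0.332 without the CD8 naive library of RhDBCb.

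The same lineage comparison in the 8 memory libraries, which are separate libraries of the same draws, called 792 of 12398 genes (6.39%), 463 (3.73%) higher in CD8 and 329 (2.65%) higher in CD4 memory cells, with 2341 (18.9%) at an unadjusted p under 0.05. Of the 140 naive calls, 107 (76.4%) were also called in memory cells, all in the same direction, 72 higher in CD8 and 35 higher in CD4. These 107 were 13.5% of the memory calls. Of the 760 memory calls that were tested in naive cells, 704 (92.6%) had the same sign there, against 65.5% of all 12014 genes tested in both. Across those genes, which are not independent replicates, Pearson's r of the fold changes was 0.631 and Spearman's rho 0.448.

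**Figure D4:**
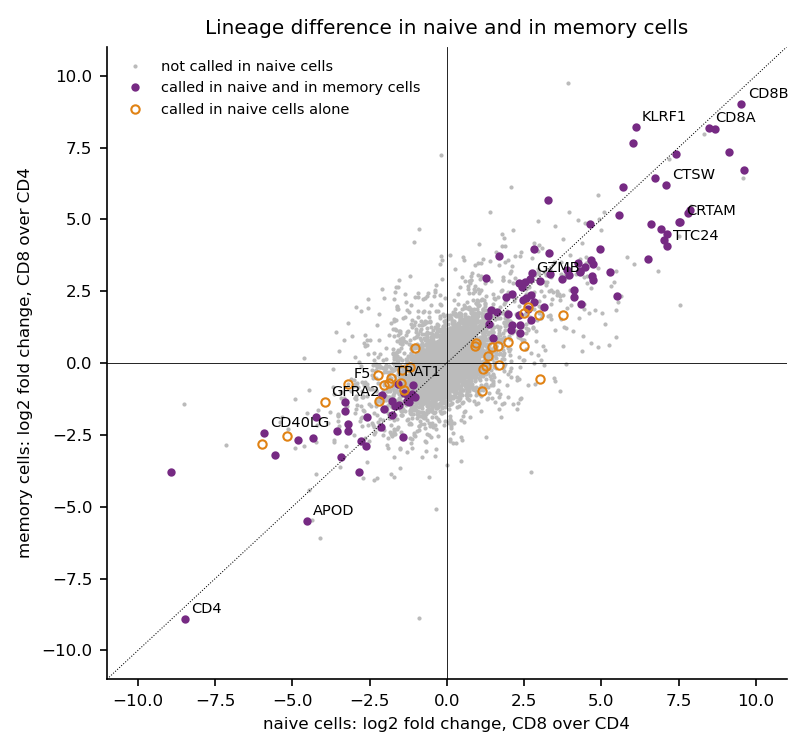
Log2 fold change of CD8 over CD4 cells in memory (vertical) against naive libraries (horizontal), 1 point per gene tested in both (n = 12014), with the dotted line of equal values. Purple points are the 107 genes called in both and open orange points the 30 called in naive cells and not in memory cells.

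A further 30 naive calls were tested and not called in memory, 16 higher in CD8 naive and 14 higher in CD4 naive cells. CCKBR, the cholecystokinin B receptor, lay at 23.2, 11.6 and 13.9 CPM in CD8 naive and 1.49, 3.13, 1.72 and 2.32 CPM in CD4 naive libraries, and at no more than 1.01 CPM in any CD8 memory library. CD248 (endosialin), a surface protein of naive CD8 cells, lay at 9.95, 14.8 and 19.1 CPM against 1.17, 3.03, 0.868 and 1.59 CPM, and at 0 to 1.01 CPM in CD8 memory libraries. It was too low in memory cells to be tested there. F5, coagulation factor V, lay at 13.0, 10.1, 12.2 and 15.0 CPM in CD4 naive and 1.10, 1.02 and 2.13 CPM in CD8 naive libraries, and its memory difference was -0.73 (adjusted p = 0.602). Being called in one and not in the other does not show that the differences differ, which was tested by itself.

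The lineage difference in memory cells minus that in naive cells was called for 6 of 13503 genes (0.0444%), 4 positive (0.0296%) and 2 negative (0.0148%), with 959 (7.1%) at an unadjusted p under 0.05. None was called in the fits without the CD4 memory library of RhDBCb after, the CD4 naive or CD8 naive library of RhM22 before, or the CD8 naive library of RhM22 after. Of the 140 naive calls, 2 were among them, LTBP4 and ENSMMUG00000057791. LTBP4 was lower in CD8 cells by 5.58 in naive and by 3.19 in memory cells on the log2 scale, with 3.07 to 4.45 CPM in CD8 memory libraries (difference 2.35 ± 0.31, adjusted p = 0.0117). PTPN7, a phosphatase that acts on MAP kinases, lay at 54.0, 44.2 and 38.4 CPM in CD8 naive and at 63.7 to 81.1 CPM in CD4 naive libraries. In memory libraries it lay at 172 to 258 CPM in CD8 and at 98.5 to 119 CPM in CD4 cells, below CD4 in every naive library and above it in every memory library (difference 1.52 ± 0.19, adjusted p = 0.0117). RCAN3, a regulator of calcineurin, overlapped between the naive lineages and lay at 19.3 to 33.1 CPM in CD8 memory libraries, against 67.0 to 94.2 CPM in CD4 memory libraries (-1.43 ± 0.21). PFN2, an actin-binding profilin, lay at 34.1, 22.2 and 19.8 CPM in CD8 naive and 13.6 to 19.8 CPM in CD4 naive libraries, and at 4.54 to 6.61 CPM in CD8 memory and 10.3 to 12.9 CPM in CD4 memory libraries (-1.69 ± 0.26). HOXB6, a homeobox factor, lay at 3.67 to 10.6 CPM in CD4 naive cells and at 0.488 to 0.807 CPM in CD4 memory cells (4.58 ± 0.60).

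Set against memory cells of the same draw, the genes higher in CD8 naive cells fell into groups. Of the 91, 42 were below the CD8 memory level in all 3 draws, 24 above it in all 3 and 25 mixed. This split was not made for all genes tested, so whether the 91 depart from them is not known. Effector genes were found below it and among the mixed. Below it, GZMK stood at 43.9%, 9.78% and 6.61% of its memory level, NKG7 at 43.2%, 17.8% and 8.91%, and SLAMF7 at 50.3%, 10.8% and 6.99%. EOMES was more even among draws, at 25.6%, 20.4% and 18.9%. Mixed were CTSW at 175%, 84% and 61%, GZMM at 136%, 63.6% and 43.8%, and CRTAM at 264%, 131% and 91.2%. Above the memory level were CD8B at 218%, 192% and 136%, CD79A at 270%, 335% and 315%, and PDE3B, a phosphodiesterase of cyclic nucleotides, at 217%, 220% and 225%. TTC24, a tetratricopeptide protein, reached 5756%, 356% and 361%.

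**Figure D5:**
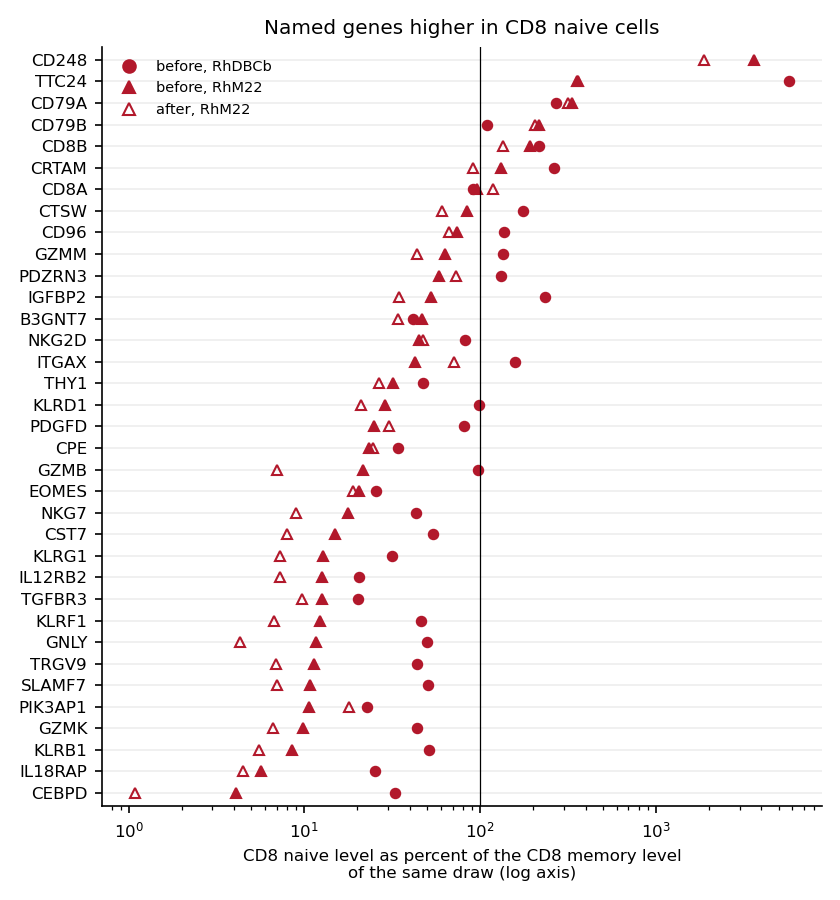
CD8 naive level of the named genes higher in CD8 naive cells as a percent of the CD8 memory level of the same draw, on a log axis, with filled circles for RhDBCb before and filled and open triangles for RhM22 before and after. The vertical line is 100%, and CD8B, CD79A and TTC24 lie right of it in every draw while GZMK, NKG7 and EOMES lie left of it; CD248 has no circle, since its CD8 memory level in that draw was 0.

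The CD8 naive library of RhDBCb stood nearest to memory cells in effector genes. The 18 cytotoxic genes summed to 72.7% of the memory level in RhDBCb, against 35.6% and 26.7% in RhM22, and the 15 NK-type receptors to 108% against 36% and 29.4%. The memory genes went the other way, with a sum of 25.8% of the memory level in RhDBCb against 49.3% and 42% in RhM22. Of the 91 genes called higher in CD8 naive cells, 72 had their highest CD8 naive level in that library, which was part of the fit that called them. The share over all genes tested was not computed, so the count is given as a description. Its share of memory cells was not measured. Among the 49 genes higher in CD4 naive cells, 25 were below the CD4 memory level in all 4 draws, 6 above it in all 4 and 18 mixed. Here too the split was not made for all genes tested. CXCR5 stood at 27.5%, 21.5%, 36.2% and 24.6% of its memory level and CCR4 at 18.1%, 19.4%, 5.63% and 7.05%. The 6 above were CDCA7L, GFRA2, KCNE4, MAP3K21, PLCL1 and SCML1.

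Whether the naive lineage difference itself varied was tested between animals and between times. Between RhM22 and RhDBCb edgeR called 0 genes, with 623 (4.91%) at an unadjusted p under 0.05, and DESeq2 called 65. The 5 genes with the smallest p were ZNF74, RAB11FIP5, IRAK3, CHN1 and CD101, each at an adjusted p of 0.687. CHN1, a signalling protein for the GTPase Rac, lay at 0.979, 81.7 and 84.7 CPM in CD8 naive and at 1.24, 1.61, 13.0 and 16.1 CPM in CD4 naive libraries. In the CD8 naive library of RhDBCb, ZNF74, RAB11FIP5, IRAK3 and CD101 lay at 0.0397 CPM or less, while the CD8 naive libraries of RhM22 held 0.564 CPM or more of each. Between after and before edgeR called 0 genes, with 49 (0.387%) unadjusted and 0 by DESeq2. The 5 smallest p belonged to IGFBP2, SHE, CCR6, ARHGEF10L and H4C3. CCR6, a chemokine receptor, lay at 26.0, 7.29 and 3.02 CPM in CD8 naive and 15.6, 27.5, 5.21 and 8.14 CPM in CD4 naive libraries. With 1 CD8 naive library after treatment, from RhM22, a difference by time in CD8 naive cells rests on that animal. The test by time could therefore show little. Its 0 calls do not mean that the lineage difference was equal at both times.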

How the data were processed

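RNA was extracted from pelleted cells and made into SMART-Seq v4 libraries, per the labels' protocols. This kit does not mark strand, so antisense and overlapping genes cannot be told apart. The authors deposited expected counts per gene, estimated with RSEM, and FPKM values, whose scale factor per library is not given in the sources used here. The submitters' processing notes name RSEM 1.3.3, STAR 2.7.6a and cutadapt 1.18, with builds Mmul_10 and rheMac10. No genome was used, so no positions or sequences are given.

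Rounding the expected counts to whole numbers changed library totals by 26.1 counts or less. The deposited table names 23407 of its 34884 genes, and a gene name table added 933. Genes with low counts were removed by filterByExpr with a minimum count of 10 and the subsets as groups. A gene expressed in a single subset could therefore pass, which fixes its direction and enters the counts and medians of gene lists. Counts were scaled by TMM and tested with edgeR's quasi-likelihood test (edgeR 4.0.16, R 4.3.3) with lineage, animal and time as terms, adjusted by Benjamini-Hochberg. The SE is the absolute log2 fold change over the square root of F. Printed CPM uses TMM factors of all 15 libraries. DESeq2 1.42.0 and limma 3.58.1 were alternatives, with other scalings, filters and blocks, and the fit was tested on simulated data. The counts include PCR copies, which no molecular tag marks.

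The labels name the animal of each library, which pairs them. In the 3 draws with both subsets, deviations of CD8 and CD4 naive libraries correlated at 0.448, 0.430 and 0.479 across genes.

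The text names, per direction, the 20 genes with the largest called fold change that have a symbol, a mean of at least 5 CPM and the same direction in 3 draws. The direction in a draw was taken with 0.5 added to each count, without which CD1C has none in RhDBCb before. The rules also select up to 4 called members of each of 31 gene lists per direction, lineage genes and regulators, and where nothing was called the 5 smallest p. The named genes of the closing sections are those the rules select, not all of which are in the text. The other genes named, such as CCKBR, PDE3B, CCL5, PRF1 and the B and NK cell markers, were chosen after their values were seen. The comparison, lists and rules were chosen with earlier results of these data known.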

Additional observations from a re-analysis of the deposited data

Results flagged for a closer look

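In the 4 CD4 naive libraries, 9 of 102 named genes had 1 library apart from the other 3: its gap to the nearest, over the group's range, passed Dixon's critical value, which chance does in about 1 in 20 groups. TCF7 had a ratio of 0.96, with 123 CPM in RhM22 after against 83.2 to 84.8 CPM in the others. CST7 had 0.941, with 1.27 CPM in RhM22 before against 0.916 to 0.937 CPM. TSHZ2 had 0.922, with 9.18 CPM in RhDBCb before against 1.23 to 1.85 CPM. DAPP1 had 0.914, with 63.3 CPM in RhDBCb before against 32 to 34.7 CPM. IL12RB2 had 0.899 and IGFBP2 0.853, both at levels under 1 CPM. KLRB1 had 0.894, with 0.175 CPM in RhM22 after against 0.505 to 0.544 CPM. TGFBR3 had 0.868, with 3.62 CPM in RhDBCb after against 12.8 to 14.2 CPM. CD79A had 0.831, with 24.6 CPM in RhDBCb after against 18.7 to 19.7 CPM.

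The lineage difference in memory minus that in naive cells was called for 6 genes. The values were 1.52 for PTPN7, 4.58 for HOXB6, 2.35 for LTBP4, 2.41 for ENSMMUG00000057791, -1.43 for RCAN3 and -1.69 for PFN2.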

How the results depend on the processing

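The CD8 naive against CD4 naive comparison called 140 genes. Other scalings gave 142 (RLE) and 148 (upper quartile), no filter 156, a mean of at least 5 CPM 155, log2(FPKM + 0.1) 139 and before libraries alone 146, a fit with 1 residual degree of freedom. Larger counts came from DESeq2 (754), all 15 libraries (419), limma voom (225) and RhM22 alone (1311, 1 residual degree of freedom). log2(FPKM + 1) gave 92. The replicate block by draw gave 309, the replicate block by animal only 226 and no replicate block 92, which held 138, 135 and 77 of the 140. Chosen after seeing the data, the fit without both before libraries of RhDBCb gave 1222, and the 3 draws with both naive subsets and a block by draw gave 310. The fit without both before libraries takes its lineage difference from RhM22 alone, so it largely repeats the fit of RhM22. Leaving out 1 library gave 18 to 310. It gave 18 without CD4 naive RhM22 before, 22 without CD8 naive RhDBCb before, 29 without CD8 naive RhM22 after, 58 without CD8 naive RhM22 before, 81 without CD4 naive RhM22 after and 310 without CD4 naive RhDBCb after. The share of calls higher in CD8 naive was 65%, against 51.7% by DESeq2, 49.2% with the block by draw, 53.1% in RhM22 and 73.9% with no block. In memory, 792 calls became 1483 by DESeq2 and 382 with no replicate block, and 428 to 709 without 1 library. It was 428 without CD4 memory RhM22 after, 448 without CD8 memory RhM22 before, 450 without CD4 memory RhM22 before and 451 without CD4 memory RhDBCb after. For memory minus naive, 6 became 171 by DESeq2, 12 with the replicate block by draw and 1 with no replicate block, and 0 to 14 without 1 library (14 without CD8 memory RhDBCb before). For RhM22 minus RhDBCb, 0 became 65 by DESeq2, and 0 to 2097 without 1 library, with 1 residual degree of freedom (2097 without CD4 naive RhDBCb before and 1227 without CD4 naive RhDBCb after). For after minus before it was 0 to 1, with 1 without CD4 naive RhM22 after. Not run were the animal comparison without the CD8 naive library of RhDBCb and the time comparison without that of RhM22 after, where the term cannot be estimated. Over the named genes 2006 alternative values kept their direction and side of the threshold, 285 lost the call, 54 gained it and 38 changed sign, all of 8 genes that were called in neither fit. Of these, ID2 (-0.02) became 0.03, NCOR1 (-0.03) 0.01 and CHD4 (-0.02) 0.00 with all 15 libraries. CHD4 became 0.16 with no replicate block, 0.07 with the replicate block by draw and in before libraries, 0.01 on log2(FPKM + 1), 0.20 in RhM22, 0.19 without both before libraries of RhDBCb and 0.08 in the 3 draws. TCF7 (-0.11) became 0.03 in RhM22 and 0.02 without both before libraries of RhDBCb, and SATB1 (-0.18) 0.02 and 0.01. HDAC2 (-0.24) became 0.02 with no replicate block, 0.15 in RhM22 and 0.14 without both. PTGER2 (-0.35) became 0.50 with no replicate block, 0.21 with all 15 libraries, 0.42 in RhM22 and 0.41 without both. Without 1 library ID2 ranged from -0.17 to 0.08, CHD4 from -0.20 to 0.21, NCOR1 from -0.14 to 0.13, TOX from -0.23 to 0.14, TCF7 from -0.25 to 0.03, SATB1 from -0.28 to 0.02, HDAC2 from -0.50 to 0.17 and PTGER2 from -1.74 to 0.56. The causes were not tested. Genes under about 1 CPM rest on few counts, and 7 called genes have at most 3 counts in 1 group, so their fitted fold is no bound.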
